A study of Mus musculus with 4 samples.

Results

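Osteoclast-like cells were sought among the myeloid cells of the infarcted mouse heart, as cells that carried both Ctsk and Acp5 transcripts in quantity. Ctsk encodes cathepsin K, the collagen-degrading protease of osteoclasts, and Acp5 encodes tartrate-resistant acid phosphatase, the enzyme used to stain them. A cell was a member if it came from an infarct, held 500 to 40000 unique molecular identifiers (UMIs, counts of individual captured transcripts) and more than 200 genes, and had at least 5 UMIs of Ctsk and at least 5 of Acp5. There were 63 members among 31295 infarct cells, in a series of 41533 cells. They were compared with 3184 infarct cells that held at least 3 UMIs of Gpnmb, a glycoprotein of lipid-loaded and reparative macrophages, and no Ctsk UMI.

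The hearts came from mice 12 to 16 weeks of age, of genotype CSF1R-EGFP+. This reporter places EGFP under the control of Csf1r, which is active in monocytes, dendritic cells and other myeloid cells besides macrophages. All groups carried this reporter, and all cells were sorted as EGFP-positive and Ly6G-negative, a gate that leaves out neutrophils. The baseline group was 1 library of 3 pooled hearts from mice without surgery. For the infarct group, the left coronary artery was ligated and hearts were taken at 7 days, with a library from each of 3 animals. Libraries held 71093963 to 97944428 UMIs in 10144 to 10804 deposited cells. Any 2 libraries shared 26 to 34 cell barcodes, and 0 of the shared barcodes belonged to a member.

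Osteoclasts are large cells with several nuclei that form when myeloid precursors fuse. Csf1 acting on Csf1r keeps the precursors alive, and RANK ligand acting on its receptor RANK, encoded by Tnfrsf11a, switches on the transcription factor Nfatc1. Mature cells pump acid through a vacuolar proton ATPase and release cathepsin K and Mmp9 to remove mineral and collagen. Their classical site is bone, and cells with some of these transcripts are also known from other inflamed or injured tissues.

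The 2 genes of the rule lie on different chromosomes (GRCm38, the build of the deposited counts). Ctsk spans chr3:95499256-95509362 on the plus strand and Acp5 spans chr9:22126727-22135711 on the minus strand. Among the other markers, Mmp9 spans chr2:164940780-164955850 and Atp6v0d2 spans chr4:19876841-19922605. The members carried high levels of both Ctsk and Acp5, so the bases just before their annotated start sites are shown, as RefSeq gives them for GRCm38.p6. RefSeq had 1 promoter entry for Ctsk and 3 for Acp5, with none for Mmp9 or Atp6v0d2. Capitals mark a match to the E-box TCANGTGA of the MiT family of transcription factors, to which Mitf and Tfec belong, searched on both strands; the match shown is on the opposite strand. The Acp5 window shown lies in an intron of the gene's longer transcripts. The last 10 bases before the start, part of an exon of another transcript, are left out.
Ctsk, chr3:95498960-95499209, plus strand: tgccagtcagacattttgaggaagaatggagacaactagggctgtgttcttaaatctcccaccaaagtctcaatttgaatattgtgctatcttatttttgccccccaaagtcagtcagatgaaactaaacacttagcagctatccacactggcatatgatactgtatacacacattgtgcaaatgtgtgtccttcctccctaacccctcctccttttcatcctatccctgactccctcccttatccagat
Acp5, chr9:22130609-22130848, minus strand: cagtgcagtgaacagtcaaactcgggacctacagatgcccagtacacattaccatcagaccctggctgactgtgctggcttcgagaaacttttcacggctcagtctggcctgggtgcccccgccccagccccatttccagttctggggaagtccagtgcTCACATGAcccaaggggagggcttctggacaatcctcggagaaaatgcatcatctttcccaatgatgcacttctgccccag
The match began 91 bases before the Acp5 start site. The motif occurred in 3.45% of the 32851 promoter windows of 250 bases, and was not found in the windows of Ctsk or of the other 2 Acp5 starts. The motif TGGAAAA, a longer sequence around the core that NFAT factors such as Nfatc1 bind, occurred in 5.93% of all windows and in none of the 4. The shorter core and its variants were not searched, so NFAT sites may be present in these windows. A match describes these letters only.

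The members were unevenly spread over the infarcts. Infarct replicate 1 held 4 members among 10396 cells, 0.0385% of them. Replicate 2 held 56 among 10782 cells, 0.519% (exact 95% binomial interval 0.393 to 0.674%). Replicate 3 held 3 among 10117 cells, 0.0297%. Thus 88.9% of the members came from 1 heart. The mean share was 0.196% ± 0.280 (SD, n = 3 hearts), and 0.0341% over the other two hearts without replicate 2. In the baseline library 0 of 10238 cells met the same rule, which allows a share of up to 0.0293%. That limit lies close to the shares in replicates 1 and 3, so a difference between baseline and these 2 infarcts was not detectable at this depth. Baseline was a single library, so infarct and baseline were not tested against each other. These intervals and limits cover counting error only.

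**Figure D1:**
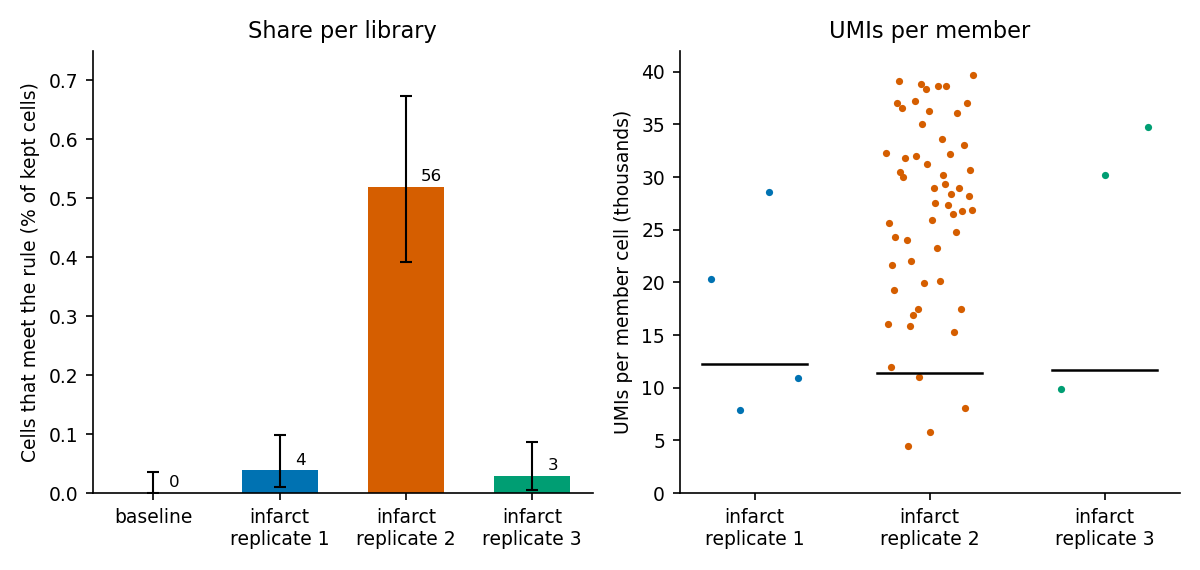
The left plot gives the percentage of kept cells that met the rule in each library, with exact 95% binomial intervals as bars and the number of cells beside them. The right plot gives the UMIs of every member (points) with the comparator's median as a line: 56 of 63 members stood in infarct replicate 2, and most members lay above the comparator's median.

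The rule asks for at least 5 UMIs of both Ctsk and Acp5 and so favours cells with many UMIs. The depths here are therefore description. Members held many transcripts. They held 4440 to 39729 UMIs, with a median of 28218 UMIs and 4719 genes, against medians of 11784 UMIs and 3067.5 genes in the comparator. There were 47 members with 20000 or more UMIs. In replicate 2 the members made up 13.1% of all cells of 20000 to 40000 UMIs, against 0.699% in replicate 1 and 0.649% in replicate 3. Between 8000 and 20000 UMIs they made up 0.191% of the cells of replicate 2, 0.0178% in replicate 1 and 0.0187% in replicate 3. When every cell was thinned to 4000 UMIs and asked for 3 UMIs of each gene, 3 of 8844, 47 of 9491 and 3 of 8240 cells qualified in replicates 1, 2 and 3. None of 7694 baseline cells did, which allows up to 0.0390%; cells under 4000 UMIs were left out, 1291 to 1877 per infarct library and 2544 at baseline. At equal depth replicate 2 thus held 0.495%, against 0.0339% and 0.0364% in replicates 1 and 3. Scrublet, which scores likely doublets, placed 1 of the 63 members among its highest scores, against 340 of 3184 comparator cells. Mitochondrial UMIs made up a median of 3.66% in members and 3.17% in the comparator. They exceeded 10% in 8 members, all from replicate 2.

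The rule chose cells by Ctsk and Acp5, so their levels are given as description. Ctsk ranged from 5 to 904 UMIs per member with a median of 121. Acp5 ranged from 5 to 758 UMIs with a median of 135. Both genes reached 10 UMIs in 53 members and 100 UMIs in 29, while 2 members held fewer than 10 of each. Just outside the threshold lay 5 cells with 3 or 4 Ctsk UMIs and at least 5 of Acp5, and 3 cells with at least 5 of Ctsk and 3 or 4 of Acp5. Ctsk was concentrated in the members: they held 61.1%, 96.5% and 84.4% of all Ctsk UMIs of replicates 1, 2 and 3. Acp5 was spread more widely. Members held 3.86%, 51.8% and 7.49% of its UMIs in the 3 hearts, and 996 infarct cells had at least 5 Acp5 UMIs and no Ctsk. Within the 63 members the levels of both genes rose together (Spearman rho = 0.84 across cells, most of them from 1 library, each gene as a share of the cell's UMIs).

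**Figure D2:**
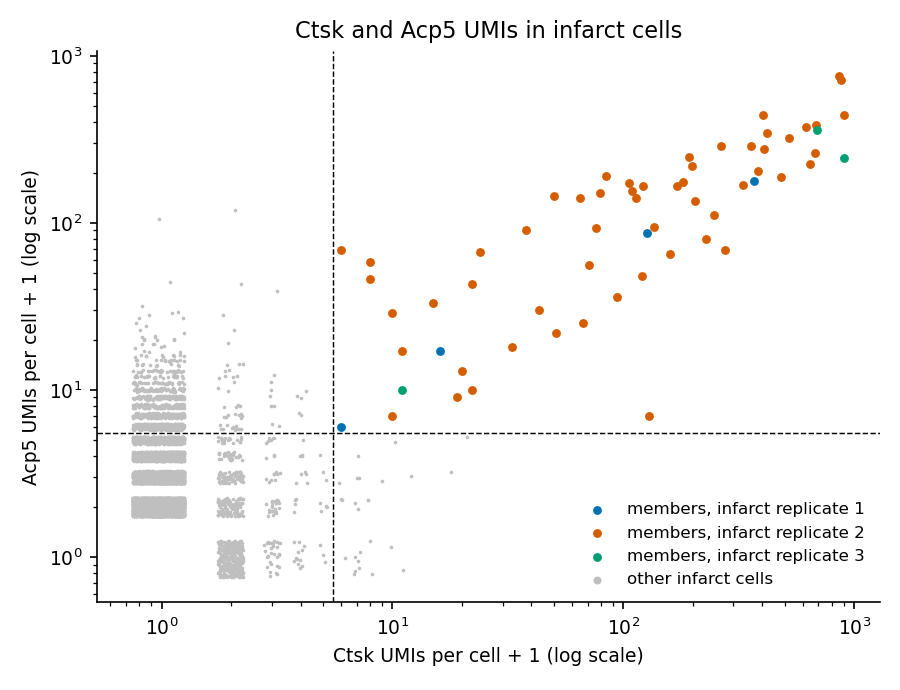
Each point is an infarct cell with at least 1 UMI of Ctsk or Acp5, placed by its Ctsk and Acp5 UMIs plus 1 on log axes; grey points carry a small random offset. Dashed lines mark the threshold, and coloured points are the 63 members by library: 53 of them had at least 10 UMIs of both genes.

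Levels of genes that the rule had not used were compared next. For this, counts of members and of comparator cells were summed within each heart after every cell had been thinned to 4000 UMIs, which kept all 63 members and 3065 comparator cells. Levels are given as CPM, a scale on which the non-mitochondrial UMIs of every sum add to the same total (1 UMI is worth the values given next). The member sums of replicates 1, 2 and 3 held 15039, 208707 and 11593 UMIs. A single UMI was thus worth 66.5, 4.79 and 86.3 CPM, and a gene at 0 in replicate 1 or 3 may have been missed. Mmp9, a gelatinase that osteoclasts release, stood at 3391, 2544 and 1984 CPM in the members of replicates 1, 2 and 3. In the comparator it stood at 1.35, 3.54 and 1.91 CPM. The member sums of replicates 1 and 3 rested on few cells. At full depth their single members held 259, 3, 0 and 0 Mmp9 UMIs in replicate 1 and 0, 160 and 24 in replicate 3. All 3 member sums lay far above all 3 comparator sums, a log2 fold change of 9.55 ± 0.59 (SE; edgeR quasi-likelihood test with heart as a block, Benjamini-Hochberg adjusted p = 2.15e-55). Atp6v0d2, a proton pump subunit that osteoclasts also need for fusion, stood at 665, 944 and 863 CPM in members and at 31.3, 17.7 and 34.9 CPM in the comparator. Its sums did not overlap either (log2 fold change 4.42 ± 0.55 SE, adjusted p = 4.82e-13). These p-values lean on a spread shared over genes and do not measure how well the 3 hearts agreed. Mmp9 and Atp6v0d2 were named as markers of these cells with earlier results of the data known. Mmp9 also passed the filter on low counts through its member sums. These values therefore describe the members and are no test of the label.

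Dcstamp and Ocstamp encode the membrane proteins needed for the fusion of osteoclast precursors. At 4000 UMIs per cell, 18 of 63 members had a Dcstamp UMI (28.6%) against 4 of 3065 comparator cells (0.131%). Ocstamp was seen in 20 members (31.7%) and 5 comparator cells (0.163%). Members are mostly cells of 1 heart: all 33 thinned Dcstamp UMIs and 28 of the 31 Ocstamp UMIs were in replicate 2, and the other 3 Ocstamp UMIs were in replicate 3. At full depth 42 members had Dcstamp, 2 of them in replicate 1, 38 in replicate 2 and 2 in replicate 3. Ocstamp was then found in 39 members, 37 of them in replicate 2, 2 in replicate 3 and 0 in replicate 1. Itgb3, the integrin chain that attaches osteoclasts to matrix, had a UMI in 9 thinned members and 2 comparator cells. Car2, a carbonic anhydrase that supplies protons, had a UMI in 10 members and 3 comparator cells. These 4 genes fell under the filter on low counts and were not tested against the comparator. Calcr, the calcitonin receptor of mature osteoclasts, had 0 UMIs in the 63 members at full depth.

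As a rough guide to free RNA, the same shares were taken in 25 infarct cells with B cell transcripts, at least 5 UMIs of Cd79a, Cd79b and Ms4a1 and none of Adgre1. Their median was 9401 UMIs before thinning, against 28218 in members and 11981 in the comparator. In them Mmp9, Atp6v0d2, Dcstamp, Ocstamp and Itgb3 were seen in 0 of 25 cells, which allows a share of up to 12%. Car2 was seen in 1 of the 25 (4%). Nfatc1 was seen in 24% of them, in 14.3% of the comparator and in 69.8% of the members. Transcripts made by these 25 cells themselves were not told apart from free RNA. The 24% for Nfatc1 is therefore no measure of its free RNA. Acp5 was seen in 24% of them and in 33.1% of the comparator. Mmp9 was seen in 63.5% of the members and Atp6v0d2 in 87.3%. The 25 cells were pooled over the infarct libraries, so the 12% limit does not hold for replicate 2 alone. The part of free RNA in the members' levels was not tested.

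Across all genes, 8513 were tested and 244 passed an adjusted p of 0.01. Of the genes tested, 0.975% were higher in members (83 genes) and 1.89% were lower (161 genes), and these shares are the background for the lists below. The median log2 fold change of all genes was -0.31. The share of higher genes depended on scaling: it was 34.0% of the calls with TMM factors, and 60.4% (353 higher, 231 lower) when library totals were used without them, with a median of 0.07 for all genes. The TMM factors of the member sums were 1.47, 0.901 and 1.46, against 0.786 to 0.811 in the comparator. Without replicate 2, whose heart gave most members, 4 genes were higher and 97 lower, and the median of all genes was -1.56. The 4 higher genes were Mmp9, S100a4, Atp6v0d2 and Nrp2. Among members of 8000 to 20000 UMIs (1, 11 and 1 in replicates 1, 2 and 3) 5 genes passed, all higher: Tfrc, Chchd10, Arsb, Ermp1 and Jdp2.

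Beyond the 2 markers, the genes with the largest rise were led by Bdh2, Sdc1, Gja1, Myo10 and Src. Bdh2, a cytosolic dehydrogenase linked to iron handling, stood at 199, 268 and 86.3 CPM in members and at 2.15 to 2.53 CPM in the comparator (log2 fold change 5.999 ± 0.59 SE, adjusted p = 7.45e-21). Sdc1, the heparan sulfate proteoglycan syndecan 1, stood at 266, 225 and 173 CPM against 3.03 to 4.06 CPM (5.63 ± 0.51). Both were higher in the members of every heart, though Bdh2 in replicate 3 was at the level of 1 UMI.
Src, the tyrosine kinase without which osteoclasts form no ruffled border, stood at 66.5, 91.0 and 86.3 CPM against 0.956 to 2.69 CPM (5.04 ± 0.49, adjusted p = 4.41e-17). In replicates 1 and 3 its level was that of 1 UMI. Myo10, a myosin of filopodia and of the osteoclast sealing zone, stood at 199, 120 and 173 CPM against 2.28 to 5.50 CPM (5.08 ± 0.51). Gja1, the gap junction protein connexin 43, had a log2 fold change of 5.30 on 15 member UMIs. Jdp2, a partner of AP-1 factors in osteoclast differentiation, stood at 465, 992 and 604 CPM against 17.4 to 19.1 CPM (4.69 ± 0.58, adjusted p = 5.00e-13).
Tfrc, the transferrin receptor that brings iron into cells, stood at 66.5, 287 and 259 CPM against 6.57 to 8.35 CPM (4.54 ± 0.65). Ppargc1b, a coactivator of mitochondrial biogenesis, stood at 133, 101 and 86.3 CPM against 3.50 to 4.05 CPM (4.34 ± 0.50). Tfrc in replicate 1 and Ppargc1b in replicate 3 were at the level of 1 UMI. Sbsn and Kbtbd11 completed the 12, with log2 fold changes of 4.78 and 4.80. Mmp9, Bdh2, Sdc1, Gja1, Myo10, Src, Kbtbd11, Sbsn and Ppargc1b passed the filter on low counts through their member sums. Without replicate 2, of these 12 only Mmp9 and Atp6v0d2 passed. Jdp2 then had an adjusted p of 0.0105, and the other 9 had values of 0.0361 to 0.898 with log2 fold changes of 3.35 to 5.31.

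**Figure D3:**
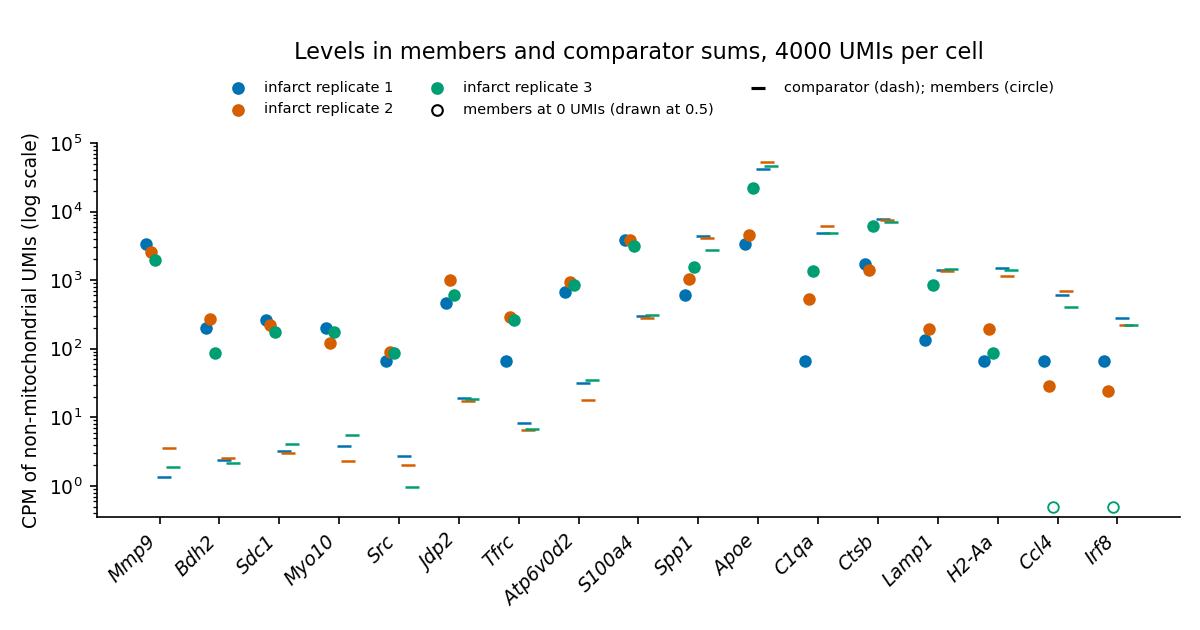
Levels of 17 genes as CPM of non-mitochondrial UMIs (log axis) in the sums of members (circles) and comparator cells (dashes) at 4000 UMIs per cell, 1 point per heart and group. Open circles drawn at 0.5 are sums with 0 UMIs; Mmp9 through S100a4 lay higher in all 3 member sums, and the genes from Spp1 to Irf8 were lower in all 3.

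Genes of osteoclast fusion and resorption were the first list described, with 10 of 16 members tested. Mmp9, Src and Atp6v0d2 were higher and 0 were lower. This count depends on the filter on low counts: Mmp9 and Src passed it through their member sums, while Dcstamp, Ocstamp, Itgb3 and Car2, absent from 1 or 2 member sums, did not pass it. Tcirg1, the osteoclast's own form of the large proton pump subunit, stood at 133, 379 and 431 CPM against 123 to 152 CPM, with overlapping sums (0.73 ± 0.54, adjusted p = 0.508). Clcn7, the chloride channel that works beside the pump, had a log2 fold change of -0.05, and this sign turned under 9 of the 20 other settings that tested it. Against all other infarct cells in place of the Gpnmb cells, 14 genes of the list could be tested and 7 were higher. Those 7 were Mmp9, Atp6v0d2, Src, Dcstamp, Ocstamp, Itgb3 and Car2. Of all 11561 genes tested against these cells, 134 were higher and 210 were lower. In that comparison Dcstamp had a log2 fold change of 5.95 ± 0.41 (adjusted p = 3.35e-41), resting on replicate 2, where it stood at 158 CPM while both other member sums were at 0. Itgb3 rested on replicate 2 as well, with 0, 52.7 and 0 CPM in members. Car2 stood at 0, 67.1 and 86.3 CPM in members, the last being 1 UMI, and Ocstamp at 0, 134 and 259 CPM.

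Receptors, signalling proteins and transcription factors moved less uniformly: of 20 tested, Nfatc1 was higher and Trem2 and Fcer1g were lower. Nfatc1 stood at 266, 517 and 0 CPM in members against 38.3 to 43.2 CPM, so its groups overlapped through replicate 3 (2.36 ± 0.63, adjusted p = 0.00676). Without replicate 2 its log2 fold change was 0.95 with an adjusted p of 0.898. At full depth 2 of the 3 members of replicate 3 had Nfatc1 UMIs. Tnfrsf11a, encoding RANK, stood at 133, 177 and 259 CPM against 46.1 to 60.4 CPM. The sums did not overlap, and the difference did not pass (1.26 ± 0.59, adjusted p = 0.205). With library totals and no TMM factors it did, at 1.70.
Mitf stood at 0, 134 and 86.3 CPM against 56.9 to 58.7 CPM, and Tfec at 66.5, 33.5 and 0 CPM against 16.7 to 24.5 CPM, and neither passed (adjusted p = 0.806 and 0.902). Csf1r, whose promoter drives the sorted reporter, had a UMI in all 63 members, from 1 to 30 per cell. It stood at 465, 517 and 259 CPM against 639 to 671 CPM in the comparator (-1.14 ± 0.48, adjusted p = 0.142). Trem2 and Fcer1g, an immunoreceptor and an adaptor chain of costimulatory signalling, had log2 fold changes of -1.92 and -1.66. Trem2 stood at 532, 335 and 1553 CPM against 1496 to 1656 CPM, so replicate 3 did not differ from the comparator's range. Without replicate 1, 0 genes of this list were lower by edgeR.

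Among genes known to restrain osteoclast differentiation, 4 of 11 tested were lower and 0 higher, with a median log2 fold change of -1.76. Irf8, the transcription factor whose loss gives excess osteoclasts, stood at 66.5, 24.0 and 0 CPM in members and at 222 to 284 CPM in the comparator (-3.47 ± 0.75, adjusted p = 0.00032). It was lower in every heart. Cebpb and the inhibitory receptor gene Lilrb4a had log2 fold changes of -1.96 and -4.59, the latter on 1 member UMI. The count rested on all 3 hearts: it was 0 of 11 by edgeR without replicate 1 (6 with an unadjusted p below 0.05), 2 without replicate 2 and 1 without replicate 3, and 2 by the DESeq2 Wald test with all hearts.

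Among the other cathepsins, hydrolases and lysosomal membrane genes tested against the Gpnmb cells, Arsb alone was higher. Of 13 other cathepsins and inhibitors tested, 6 were lower (Ctsb, Ctsc, Ctsd, Ctsh, Ctss and Lgmn) and 0 were higher, with a median of -1.57. Ctsb, an abundant macrophage cathepsin, stood at 1729, 1404 and 6211 CPM against 7061 to 7695 CPM (-2.21 ± 0.39, adjusted p = 3.28e-06). Ctsh stood at 199, 105 and 431 CPM against 1016 to 1052 CPM (-3.04 ± 0.52). Replicate 3 lay nearest to the comparator for both. Without replicate 1 the list had 1 lower gene, without replicate 2 it had 8, and without replicate 3 it had 5 lower and 1 higher. Of 26 hydrolases and cofactors, Arsb, a sulfatase of glycosaminoglycan breakdown, was higher (3.58 ± 0.55, adjusted p = 1.77e-08), and Psap, Man2b1 and Grn were lower. Of 17 lysosomal membrane genes, Lamp1, Lamp2 and Laptm5 were lower. Lamp1 stood at 133, 192 and 863 CPM against 1368 to 1456 CPM (-2.79 ± 0.48). Lamp2, at 199, 76.7 and 604 CPM against 560 to 602 CPM, was not lower in replicate 3. Without replicate 1, 0 hydrolases and 0 membrane genes were lower by edgeR, with unadjusted p below 0.05 for 7 and 5 genes of those lists in either direction. Without replicate 3 there were 1 and 2 lower genes. The lower counts also depended on the comparator, which was chosen on Gpnmb. Against all other infarct cells Ctsc, Ctsh, Ctss, Lgmn, Man2b1, Lamp1, Lamp2 and Laptm5 were still lower. Ctsb, Ctsd, Psap and Grn did not pass there (edgeR adjusted p = 0.0117, 0.103, 0.0574 and 0.0269). The inhibitor gene Cst7 was then higher, at 133, 28.7 and 0 CPM in members.

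Few proton pump and mitochondrial genes passed, and their number depended on the scaling, the thinning and the block. Of 17 V-ATPase subunits tested, Atp6v0d2 alone passed, with a median log2 fold change of 0.73. With library totals and no TMM factors 8 were higher and 1 lower, and the median was 1.34. Of 19 genes of oxidative phosphorylation only Cycs, encoding cytochrome c, passed (1.99 ± 0.53, adjusted p = 0.00626), with a median of 0.95. All 19 lay higher in members in this fit, with log2 fold changes from 0.28 to 1.99. With library totals 15 passed, all higher. Without thinning 19 passed, and without the replicate block 18 did, all higher. In those 2 settings 12 and 9 V-ATPase subunits were higher and 1 was lower in each. Among cells of 8000 to 20000 UMIs both medians were negative, -0.28 for the V-ATPase and -0.15 for oxidative phosphorylation. The median of all genes was lower still in that setting, at -0.94. Chchd10, a protein of the mitochondrial intermembrane space outside these lists, stood at 532, 561 and 345 CPM against 17.5 to 21.3 CPM (4.12 ± 0.59). Of 18 genes of glycolysis and hypoxia 0 passed by edgeR or by DESeq2 (2 had an unadjusted edgeR p below 0.05), and the median of -0.11 turned to 0.48 with library totals. Of 12 genes of the MiT family and nutrient signalling Ppargc1b alone was higher.

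Higher levels of cell cycle genes rested on replicate 2. Birc5, Cdk1, Ube2c, Ccnb2, Cenpf and Tyms passed, 6 of 11 tested, with a median log2 fold change of 2.17. Birc5, encoding survivin, which is needed for chromosome segregation, stood at 0, 144 and 0 CPM in the members of replicates 1, 2 and 3 and at 11.3 to 15.1 CPM in the comparator. Member sums of replicates 1 and 3 were at 0 for 5 of the 6 genes, and Ube2c had 66.5 CPM in replicate 1. Without replicate 2, 0 of 9 tested passed by edgeR and 0 had an unadjusted p below 0.05. Leaving out replicate 1 or replicate 3 left 1 called gene each. By the DESeq2 Wald test 0 of the 11 passed with all hearts. At full depth 13 members had 5 or more UMIs of Mki67 and Top2a together, all in replicate 2, with a median of 75 Ctsk and 68 Acp5 UMIs.

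Some macrophage and lipid-handling genes were lower. Of 20 genes of lipid-associated macrophages 7 were lower (Apoe, Fabp5, Spp1, Igf1, Gdf15, Trem2 and Hmox1) and 0 higher, with a median of -2.07 (-1.88 with the gene at 0 UMIs in members set to its bound). Apoe, an abundant apolipoprotein of macrophages, stood at 3325, 4595 and 21910 CPM against 42031 to 52796 CPM (-3.38 ± 0.39, adjusted p = 2.20e-15). Spp1, encoding osteopontin, stood at 598, 1054 and 1553 CPM against 2782 to 4344 CPM (-2.43 ± 0.42). The comparator had been chosen on Gpnmb, a gene of this list's cells. Against all other infarct cells 2 of the 20 genes were lower and 0 higher, with a median of -1.05. Without replicate 1 the comparison with the Gpnmb cells left 1 lower gene, against 7 without replicate 2 and 7 without replicate 3.
Of 11 macrophage markers 7 were lower, among them C1qa, C1qb and C1qc, the subunits of complement C1q. C1qa stood at 66.5, 522 and 1380 CPM against 4786 to 6146 CPM (-3.85 ± 0.45, adjusted p = 9.30e-15). Summed over the list, macrophage markers stood at 6450, 4672 and 29846 CPM in members and 34473 to 39089 CPM in the comparator. Replicate 3 came close to the comparator, and 1 of its 3 members carried most of its C1q and Lyz2 transcripts. Of 10 genes of MHC class II presentation 5 were lower, and H2-Aa stood at 66.5, 192 and 86.3 CPM against 1135 to 1483 CPM (-3.56 ± 0.52). Of 22 chemokines and cytokines 10 were lower, and Ccl4 stood at 66.5, 28.7 and 0 CPM against 410 to 692 CPM (-4.75 ± 0.71). Without replicate 2 the chemokine list had 4 lower genes, and without replicate 3 the MHC class II list had 3.

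**Figure D4:**
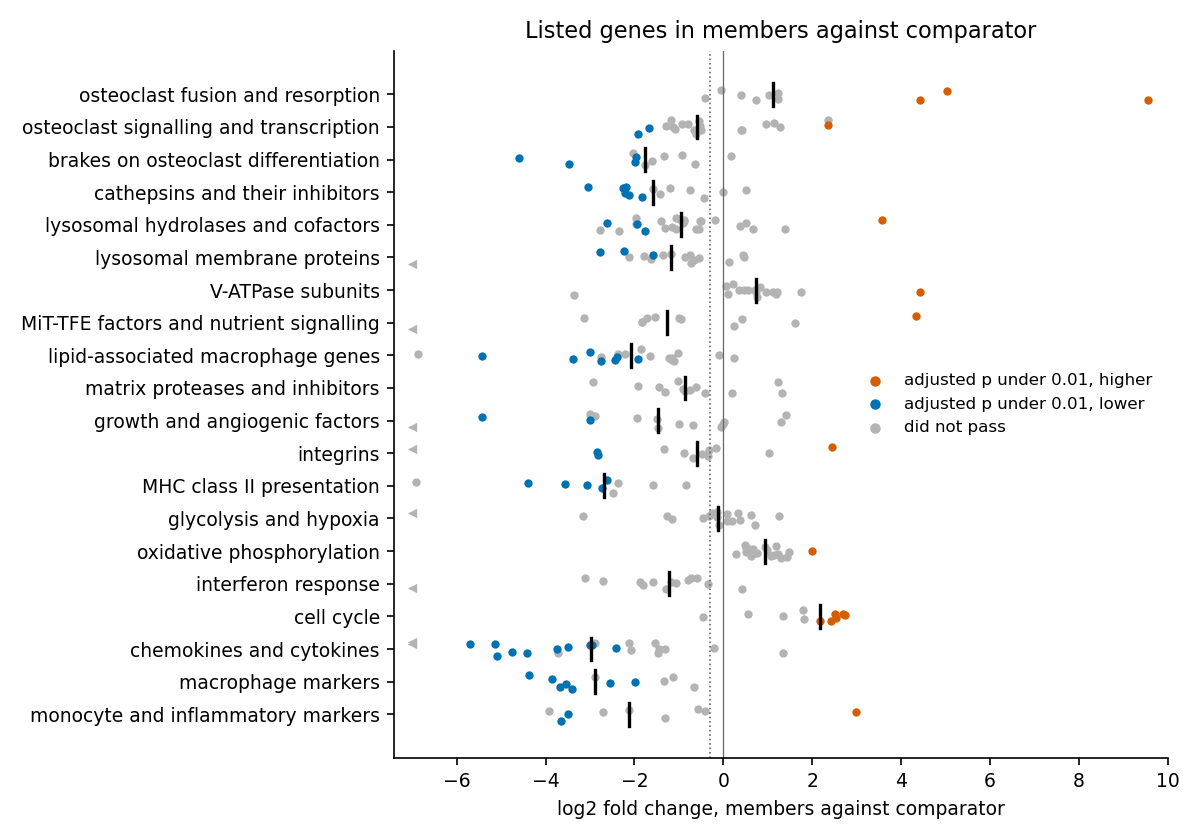
Each point is a tested gene of a list, placed by its log2 fold change in members against the comparator (values under -7 drawn as triangles at -7). Black bars are list medians and the dotted line is the median of all genes, -0.31; orange and blue points passed an adjusted p of 0.01, and 6 of 11 cell cycle genes and 7 of 20 lipid-associated genes did so, in opposite directions.

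Several genes were not seen at all in the thinned member sums. For these the fitted value is no bound, so the comparator mean was set against the 12.7 CPM that 3 UMIs over all members would give. F13a1, the coagulation factor XIII subunit of resident-type macrophages, was at least 9.58-fold lower on that basis. Hpgd, which degrades prostaglandins, was at least 5.96-fold lower, and Atp8a1 at least 5.31-fold lower. Tifa, S1pr1, Lpar6, Csf3r, Arhgap22, Hivep3 and Fam46c were at least 4.00-fold to 4.64-fold lower. These bounds pool all members and rest mainly on replicate 2, with 208707 UMIs against 15039 and 11593 in replicates 1 and 3. In replicates 1 and 3 a single UMI was worth 66.5 and 86.3 CPM. Of the genes given a bound, only F13a1 had a comparator mean above both values, at 122 CPM. The bounds therefore do not hold for replicate 1 or 3 alone. Gab2 was also at 0 after thinning but had 35 member UMIs at full depth, so no bound is given for it. Tmem176a had 1 member UMI against 170 to 201 CPM in the comparator (-5.81 ± 1.09). At full depth these 11 unseen genes had 2 to 35 UMIs in members.

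Among integrins, the receptor family the study was about, 3 of 12 tested passed. Itgb5 and Itga6 were lower (-2.84 and -2.81), and Itgb7 was higher (2.46 ± 0.58) with 266, 52.7 and 0 CPM in members against 8.34 to 16.0 CPM. Itga5, the study's integrin, stood at 0, 52.7 and 86.3 CPM against 45.4 to 62.2 CPM and did not pass (-0.35 ± 0.70, adjusted p = 0.862), a sign that turned with library totals. Of 15 growth and angiogenic factors Igf1 and Gdf15 were lower and 0 were higher. Of 13 matrix proteases and inhibitors 0 passed by edgeR or DESeq2 (5 had an unadjusted edgeR p below 0.05), and the same was true of 14 interferon response genes (5 below 0.05).

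Markers of other cells were examined as whole lists. Summed fibroblast markers stood at 199 to 345 CPM in members and 254 to 289 CPM in the comparator, with 7 of 10 markers seen and Lum, Pdgfra and Tcf21 at 0. Most of the member sums was Gsn, at 133, 216 and 345 CPM in replicates 1, 2 and 3. Col1a1 stood at 0, 14.4 and 0 CPM, Col1a2 at 0, 4.79 and 0 CPM, and Dcn at 66.5, 9.58 and 0 CPM. Col3a1 was at 0 in each. Osteoblast, erythroid and dendritic cell markers summed to 0 CPM in all 3 member sums, and of the 12 markers of osteoblasts, endothelium, smooth muscle, B cells and fibroblasts that could be tested 0 passed by edgeR or DESeq2, and 7 had an unadjusted edgeR p below 0.05. Endothelial, cardiomyocyte, smooth muscle and mast cell markers reached at most 19.2 CPM in members. B cell markers reached 66.5 CPM and T and NK cell markers 86.3 CPM, each the value of 1 UMI in replicate 1 or 3. Of 9 monocyte and inflammatory markers tested S100a4, a calcium-binding protein, was higher at 3790, 3871 and 3105 CPM against 281 to 310 CPM (2.99 ± 0.42, adjusted p = 3.99e-10), while Ccr2 and Il1b were lower. Of 6 resident macrophage markers F13a1, Mrc1 and Gas6 were lower, though Mrc1 stood at 518 CPM in the members of replicate 3 against 291 to 428 CPM in the comparator. Of 2 granulocyte genes tested Csf3r was lower and S100a8 was higher, at 66.5, 62.3 and 0 CPM against 4.85 to 8.60 CPM (2.58 ± 0.54). Its partner S100a9 had 0 UMIs in the 63 members at full depth, as did Ly6g, Camp, Ltf and Retnlg. The part of other cells in these levels was not tested further.

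The members were not uniform. There were 10 members with 30 or more UMIs of C1qa, C1qb and C1qc together, 9 in replicate 2 and 1 in replicate 3, and 53 with fewer. This division was made after the values were seen and carries no test. In the 10, summed at full depth, C1qa stood at 2535 CPM, Apoe at 15826 CPM and Lyz2 at 7006 CPM. In the 53 they stood at 48.1, 2046 and 629 CPM. Mmp9 ran the other way, at 432 CPM in the 10 and 2727 CPM in the 53, as did Ocstamp at 50.3 and 147 CPM. Summed Nfatc1 was alike, at 440 and 465 CPM, but the 10 were split. Members with 26, 23, 15, 22 and 17 Nfatc1 UMIs carried nearly all of it, and the others had 0 or 1. Those others also had 0 or 1 UMIs of Atp6v0d2 and 0 of Mmp9, Dcstamp and Ocstamp. Mmp9 was at 0 UMIs in 6 of the 10, and most of its UMIs in the 10 lay in 1 member, which held 79. In single members Mmp9 ranged from 0 to 644 UMIs with a median of 16, and 47 of 63 members had a UMI of it. Atp6v0d2 ranged from 0 to 83 UMIs with a median of 19, and 59 had a UMI. Nfatc1 had a UMI in 58 members and Tnfrsf11a in 57.

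**Figure D5:**
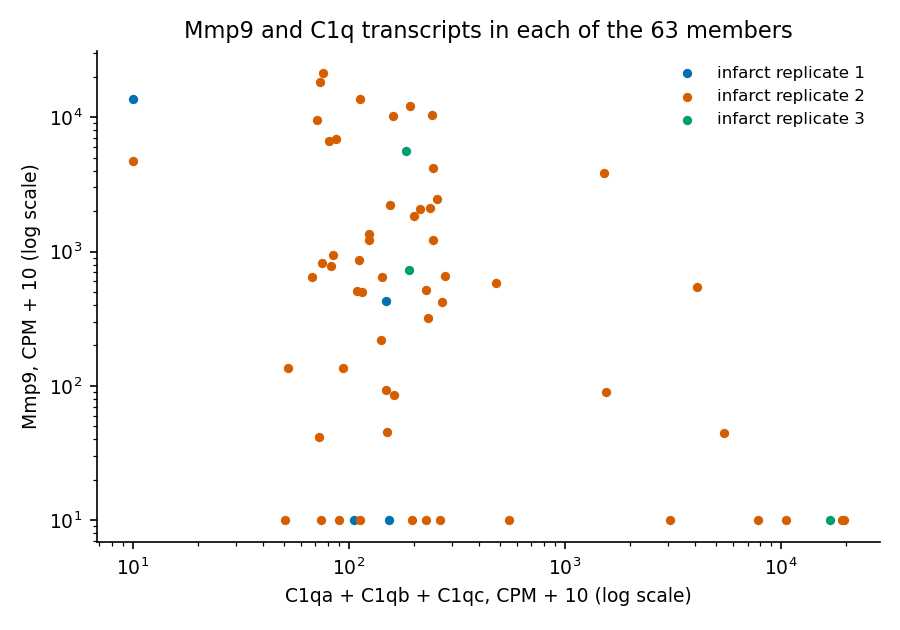
Each point is a member, placed by its summed C1qa, C1qb and C1qc level and its Mmp9 level (CPM of the cell plus 10, log axes) and coloured by library. The 10 members with 30 or more C1q UMIs lie at the right, and 6 of them had no Mmp9 UMI.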

How the data were processed

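The authors deposited raw UMI counts per gene and cell for the barcodes Cell Ranger called as cells (version 3.1.0 per the file headers, 3.0.1 per the submitters' processing notes; mm10). There were no columns outside the series' 4 libraries. The members and gene lists were chosen with earlier results of these data known. Cells of 500 to 40000 UMIs and over 200 genes were kept. Each cell was thinned to 4000 UMIs without replacement. Counts of members and of comparator cells were summed per infarct heart, giving 6 sums without the 13 mitochondrial genes. Sums were compared with edgeR 4.0.16 (R 4.3.3; TMM, filterByExpr, quasi-likelihood test) at a Benjamini-Hochberg adjusted p of 0.01. Both sums of a pair came from the same heart, which was the block. The SE given is the log2 fold change, without its sign, divided by the square root of the test's F statistic. The test shares its estimate of spread over genes, so a small p or SE does not measure the agreement of the 3 hearts for a single gene. Birc5 passed at 0, 144 and 0 CPM in members. Ctsk, Acp5 and Gpnmb were counted but not tested. Values of 1 listed gene are not reported here. Each infarct library was 1 animal.

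Named genes were the 12 highest and 12 lowest log2 fold changes among genes past the threshold, on the same side in all hearts and with a mean of 50 CPM or more in the higher group. Mitochondrial, ribosomal protein, sex-linked and unnamed genes were not ranked. Up to 4 genes per list, fixed osteoclast genes and Itga5 were added. Genes named outside this rule are Chchd10, Ermp1, Nrp2, Csf1r and those named to complete a list's count, chosen after their values were seen. Scrublet (scanpy 1.11.5) gave doublet scores, and no cell was removed for them in the main comparison; the highest scores, 8 per 1000 cells for every 1000 cells, were removed as an alternative. Exact binomial intervals came from scipy 1.17.1. Tested on simulated data drawn from these sums (8516 genes), the fit recovered 100% of 50 genes raised 16-fold and 50% of 50 lowered 16-fold, 4% of 50 raised 4-fold and 18% of 50 lowered 4-fold, with 0 unchanged genes called. The changed genes were all well expressed in the comparator and the simulated spread was fixed. These rates therefore do not describe genes that were scarce in the comparator, such as Mmp9 and Src. Gene positions came from GENCODE vM21. Settings tried were other scalings and tests, filters, depths, thresholds and comparators and each heart left out; library totals and no upper UMI limit were added after the data were seen.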

Additional observations from a re-analysis of the deposited data

Results flagged for a closer look

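Cells above 40000 UMIs were outside the comparisons. In infarct replicate 2, 6 of the 13 such cells had at least 5 UMIs each of Ctsk and Acp5, against 0 of 1 such cell at baseline and 0 of 5 in the other two infarct libraries. With them included, replicate 2 held 62 cells that met the rule, 0.574% of its cells.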

How the results depend on the processing

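The 244 called genes became 466 with DESeq2 size factors, 157 with the DESeq2 1.42.0 Wald test, 584 with library totals without scaling factors, 88 when thinned to 2000 UMIs, 653 at 8000 UMIs, 1763 without thinning, 5 among cells of 8000 to 20000 UMIs, 154 at a threshold of 3 and 3 UMIs, 385 at 10 and 10, and 138 without cells holding fibroblast UMIs. Without the replicate block 1047 genes passed, the same 244 among them. Leaving out a heart gave 101 to 171 genes, of which 88 (without replicate 2), 94 (without replicate 1) and 153 (without replicate 3) were also called with all hearts. The other settings gave 188 to 344. Every gene called both ways had the same direction in each of these settings. Baseline cells meeting the rule were 0.0391% (4 cells) at 3 and 3 UMIs, and members made up 0.191% of replicate 2 among cells of 8000 to 20000 UMIs. The mean share over hearts ranged from 0.0341 to 0.279% with a heart left out. For 79 named genes, 1275 of 1607 values kept direction and side of the threshold, 307 no longer passed, 5 passed that had not, and 20 changed sign. Without replicate 2 the log2 fold changes of Tcirg1, Mitf, Birc5, Cdk1 and Ccnb2 were -0.11, -1.55, -7.69, -6.55 and -6.80, the last 3 with 0 UMIs in the members left. With a heart left out the highest values of these 5 genes were 1.18, 0.82, 2.89, 2.61 and 2.65, and Clcn7 ranged from -1.10 to 0.0512. Among cells of 8000 to 20000 UMIs those of Mitf, Tfec and Itgb7 were -2.17, -0.90 and -7.08. Tfec was -1.01 at 2000 UMIs and -0.34 at 8000 UMIs. Itga5 was 0.055 with library totals. Clcn7 was 0.18 without the block, 0.0512 without replicate 1, 0.025 without replicate 3, 0.28 at 2000 UMIs, 0.40 at 8000 UMIs, 0.28 without thinning, 0.84 against all other infarct cells, 0.0052 without an upper UMI limit and 0.33 with library totals. The cause of these changes was not tested. Members that also held 3 Gpnmb UMIs were 0, 13 and 0 in replicates 1, 2 and 3, so this alternative could not be fitted. With 3 and 4 members in 2 of the hearts, low genes cannot be resolved there.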

Other observations

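Transcripts of the fusion genes were not confined to the members. At full depth 74 baseline cells had 2 or more Dcstamp UMIs and 13 had 2 or more Ocstamp UMIs, and none of them met the rule. In infarct replicates 1, 2 and 3 there were 33, 60 and 29 cells with 2 or more Dcstamp UMIs, of which 2, 30 and 2 were members. For Ocstamp there were 32, 59 and 31 such cells, of which 0, 29 and 2 were members. Mmp9 was concentrated in members in replicate 2, which held 91.8% of that library's Mmp9 UMIs, against 31.5% in replicates 1 and 3. Members held 4.62%, 70.9% and 9.58% of the Atp6v0d2 UMIs of replicates 1, 2 and 3. A further 23 infarct cells had at least 5 Ctsk UMIs and 0 to 2 of Acp5, spread as 10, 8 and 5 over the 3 hearts, unlike the members.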
